A study of Mus musculus with 8 samples.

Results

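Lysozyme, galectin-3 and 7 cathepsins form a set of degradative and sugar-binding proteins that monocytes and other phagocytes carry, and their transcripts were followed here in mouse peripheral blood. The genes were Lyz2, Lyz1, Ctsb, Ctsc, Ctsd, Ctsh, Ctsl, Ctss, Ctsz and Lgals3, chosen by their symbols in the deposited count table. All 10 were found among the 21878 symbols of the table, and 10 were among the 11718 genes tested, those with 10 counts or more in 4 samples or more. The study asked how an acute stress changes gene expression in blood cells. All mice were female C57BL/6 WT animals aged 6 to 8 weeks and had neither food nor water for the time of the experiment. Restraint lasted 6 hours in a tube with air holes for the stress group (4 samples), while littermates of the control group (4 samples) were left in their cage. RNA of whole peripheral blood was sequenced as 1 library per sample. Total counts per library were 31471145, 35098378, 39014775 and 31524196 for control replicates 1 to 4 and 27985919, 29655725, 25978683 and 28392759 for stress replicates 1 to 4. Haemoglobin genes took 61.1%, 57.2%, 51.9% and 63.8% of the counts of control replicates 1 to 4 and 66.5%, 70.4%, 75.5% and 61.2% of those of stress replicates 1 to 4.

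Cathepsins are proteases made as inactive precursors, carried to the lysosome and activated by its low pH, where they break down proteins taken up by the cell or delivered from within it. Lysozyme cleaves the peptidoglycan of bacterial walls and is packed into granules and secreted by phagocytes. Galectin-3 is a lectin that binds galactose-containing sugars and gathers on damaged endosomes and lysosomes.

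The cells behind these transcripts could not be assigned from whole blood. Of 16 classical monocyte markers 16 were tested, but so were 23 of 23 neutrophil markers, and neutrophils carry Lyz2 as well. Of 12 macrophage markers 3 were tested and Marco was at 0 counts in every sample. The summed level of the classical monocyte markers was 402, 390, 432 and 434 CPM (counts per 1e6 counts of the TMM-scaled library) in control replicates 1 to 4, and 790, 486, 605 and 823 CPM in stress replicates 1 to 4. That of the neutrophil markers was 524, 475, 327 and 586 CPM in control samples and 971, 892, 905 and 1183 CPM in the stress group, in the same order of replicates. On this TMM scale both sums were higher in every stress sample than in every control sample, while on total counts the groups overlapped for both. S100a9 was the most abundant neutrophil marker per length, at 50.3 ± 10.4 CPM in control and 142.0 ± 29.8 CPM in stress samples (SD, n = 4 each). In blood as a whole, a different number of cells of a type and a different amount of RNA per cell cannot be told apart. The part of either cell type in the results that follow was not tested.

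Restraint was accompanied by higher Lyz2, Lgals3, Ctsd and Ctsz, while Ctsh, Ctsc, Ctss, Ctsl, Ctsb and Lyz1 did not pass the test. Of the 10 genes, 2 were called up (Lyz2 and Lgals3), that is, past a log2 fold change of 1 with an adjusted p below 0.01 in edgeR's quasi-likelihood test, against 1.69% of the tested genes (198 of 11718). Of the 10, 0 were called down, against 0.0171% (2 of 11718), by edgeR as by DESeq2 and limma-voom, and 0 were lower at an unadjusted p under 0.05. Without the fold change threshold 4 of the 10 were higher at an adjusted p below 0.01, against 4.6% of the tested genes, and 0 were lower, against 0.324%. In 4 of the 10, the lowest stress sample exceeded the highest control sample, against 11.1% of the tested genes, and in 0 every stress sample lay below, against 9.87%. The median log2 fold change was 0.66 over the 10 genes and -0.03 over the tested genes.

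These directions rest on the TMM scale, which takes the typical gene as unchanged. The median log2 fold change of the tested genes became -0.82 with scaling by total counts and -0.43 with scaling by total counts outside haemoglobin. On total counts 4 of the 10 genes were higher and 6 lower, and 0 of them passed the adjusted p in edgeR, while 14 of the tested genes were called up and 729 down. On total counts outside haemoglobin 7 were higher and 3 lower, and Lyz2 passed the adjusted p without reaching a log2 fold change of 1. Leaving out 1 sample in turn moved the count of tested genes called up to 76, 95 and 340 when control replicate 2, 3 or 4 was absent. The count of 2 among the 10 genes, Lyz2 and Lgals3, was the same in the 8 such fits. The count of 4 fell to 2 without control replicate 1, 2 or 3 and without stress replicate 1 or 2.

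**Figure D1:**
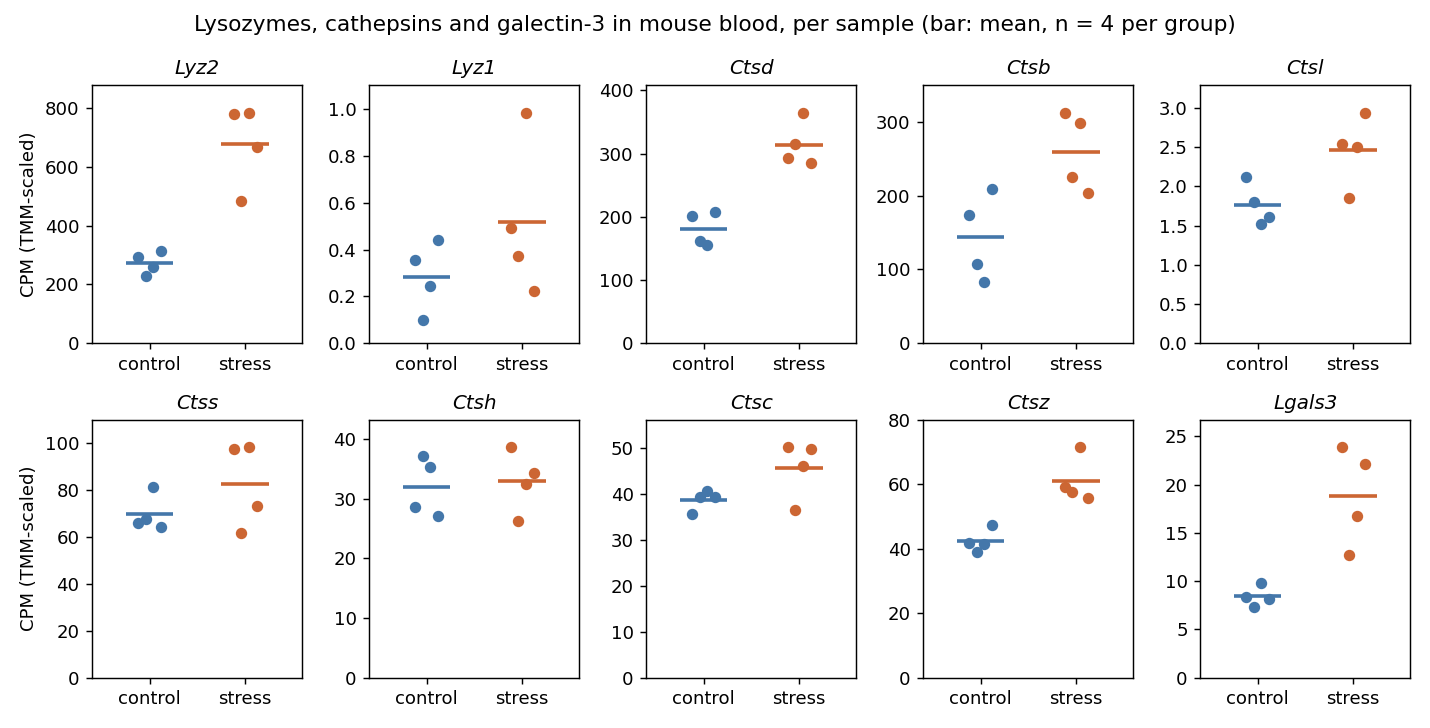
TMM-scaled CPM of the 10 genes in each of the 4 control (blue) and 4 stress (orange) samples, with a bar at the group mean and each axis starting at 0. The groups do not overlap for Lyz2, Lgals3, Ctsd and Ctsz, and they overlap for the other 6 genes; on total counts Ctsz is lower, not higher, in the stress group (log2 fold change -0.28).

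The lysozymes come first. Lyz2 encodes lysozyme M, the form of myeloid cells, and lies at chr10:117277331-117282321 on the minus strand (GRCm38, GENCODE M21, 4 exon blocks). Its level was 293, 226, 259 and 313 CPM in control replicates 1 to 4 and 779, 483, 785 and 669 CPM in stress replicates 1 to 4. Every stress sample stood above the highest control sample, with stress replicate 2 the lowest of its group. The mean rose from 273 ± 38.0 to 679 ± 141 CPM (mean ± SD, n = 4 in both groups), or by 1.32 on the log2 scale (standard error 0.20, edgeR, adjusted p = 0.00134). It was 0.92 on total counts outside haemoglobin (adjusted p = 0.00326) and 0.54 on total counts (adjusted p = 0.0596).

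Lyz1, the lysozyme P of intestinal Paneth cells, is the neighbouring gene at chr10:117287797-117292868 on the same strand. It had 13, 5, 17 and 14 counts in control replicates 1 to 4 and 11, 8, 13 and 7 counts in stress replicates 1 to 4, so that the groups overlapped. Lyz1 did not pass the test (log2 fold change 0.81, standard error 0.58, edgeR, adjusted p = 0.369, and -0.03 on total counts). What change could be detected at such low counts was not tested. Lyz1 took 0.0997% ± 0.0424 of the lysozyme counts in control samples and 0.0747% ± 0.0384 in stress samples (SD, n = 4 each), a share that does not depend on library scaling (two-sided exact permutation test over 70 assignments, p = 0.429). Single samples ranged from 0.0335% (stress replicate 4, exact binomial 95% interval 0.0135% to 0.069%) to 0.141% (control replicate 4, 0.0771% to 0.236%), intervals that do not overlap and that cover counting error alone, not the spread between mice.

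The lysozyme genes are near copies, which bears on how far their counts can be separated. Their coding sequences have 444 bases each without the stop codon, of which 22 differ (95.05% identity), and the longest identical run is 118 bases. Of the stretches of 50 bases in the Lyz2 transcripts 15.4% also occur in Lyz1, and of those of 100 bases 1.97%, so reads of that length cannot all be placed and the Lyz1 counts remain uncertain. Bases 1 to 150 of both coding sequences are shown because 14 of the 22 differences lie there, marked by capitals (GENCODE M21 transcripts).
Lyz2: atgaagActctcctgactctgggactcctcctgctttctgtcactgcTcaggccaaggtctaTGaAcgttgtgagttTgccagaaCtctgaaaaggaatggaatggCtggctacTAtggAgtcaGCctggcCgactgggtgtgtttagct
Lyz1: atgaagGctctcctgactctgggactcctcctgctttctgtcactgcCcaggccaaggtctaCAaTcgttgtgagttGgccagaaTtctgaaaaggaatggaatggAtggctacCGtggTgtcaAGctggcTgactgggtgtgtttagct

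Upstream sequence is shown for the same reason, from 250 to 51 bases before both starts, with the longest run that is identical at the same distance in capitals (RefSeq, GRCm38.p6, minus strand, chr10:117282323-117282522 for Lyz2 and chr10:117292919-117293118 for Lyz1). The 50 bases next to the RefSeq start, not printed, are the same in both, and 152 of the 250 bases (60.8%) are identical. The starts differ between the sources for Lyz2, so that 49 of its 50 bases lie in an exon of the gene as GENCODE gives it, while for Lyz1 0 of the 50 do.
Lyz2: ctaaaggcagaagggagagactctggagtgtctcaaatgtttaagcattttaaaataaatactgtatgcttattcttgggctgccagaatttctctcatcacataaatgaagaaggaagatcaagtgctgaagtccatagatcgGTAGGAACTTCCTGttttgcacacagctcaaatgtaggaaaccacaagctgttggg
Lyz1: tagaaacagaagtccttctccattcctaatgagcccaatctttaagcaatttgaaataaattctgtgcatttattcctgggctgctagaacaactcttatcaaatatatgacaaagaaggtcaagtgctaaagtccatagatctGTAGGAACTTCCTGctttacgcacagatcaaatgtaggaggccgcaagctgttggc
So the lysozyme with the higher level and the one near the detection limit shared the sequence next to their RefSeq starts, a description of the letters from which nothing about their control follows.

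Ctsd, the aspartic endopeptidase among the cathepsins, lies at chr7:142375911-142388038 on the minus strand. It was counted at 201, 162, 155 and 207 CPM in control replicates 1 to 4 and at 292, 314, 365 and 285 CPM in stress replicates 1 to 4. In TMM-scaled CPM the groups did not overlap, and within each group the samples stood in the order of their haemoglobin share. As a share of total counts Ctsd stood in the reverse order within each group. There the groups overlapped, at 0.0208% to 0.0274% in control and 0.0185% to 0.0314% in stress samples. The mean rose from 181 ± 26.5 to 314 ± 36.1 CPM (mean ± SD, n = 4 in both groups), or by 0.80 on the log2 scale (standard error 0.15, edgeR, adjusted p = 0.00475), which is below the threshold of 1. It was 0.40 on total counts outside haemoglobin (adjusted p = 0.0548) and 0.01 on total counts (adjusted p = 0.979). The call of Ctsd at an adjusted p below 0.01 was lost without control replicate 1 (0.0104), 2 (0.0288) or 3 (0.0206) and without stress replicate 1 (0.0119) or 2 (0.0161), with log2 fold changes from 0.73 to 0.86 in these fits. In the annotation 808 exon bases of Ctsd are shared with Gm49369 on the same strand, a symbol that was not in the table analysed, so how those reads were counted is not known.

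Cysteine cathepsins make up the other 6 proteases. Ctsz, a carboxypeptidase also called cathepsin X (chr2:174427493-174439039, minus strand), was at 41.7, 39.1, 41.5 and 47.3 CPM in control replicates 1 to 4 and at 59.3, 57.7, 71.5 and 55.7 CPM in stress replicates 1 to 4. Again no stress sample fell within the control range, and stress replicate 3 was the highest. The mean rose from 42.4 ± 3.45 to 61.0 ± 7.12 CPM (mean ± SD, n = 4 in both groups), or by 0.52 on the log2 scale (standard error 0.11, edgeR, adjusted p = 0.00846), but on total counts it was -0.28 and on total counts outside haemoglobin 0.12. The call at an adjusted p below 0.01 ended without control replicate 1 (0.0295), 2 (0.0456) or 3 (0.0331) and without stress replicate 1 (0.0175) or 2 (0.0163).

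Ctsb, an endopeptidase that also removes dipeptides from protein ends (chr14:63122462-63145923, plus strand), had 174, 108, 83.5 and 209 CPM in control replicates 1 to 4 and 313, 225, 299 and 204 CPM in stress replicates 1 to 4. Stress replicate 4 lay below control replicate 4, so the groups overlapped, and the control samples stood in the order of their haemoglobin share. With means of 144 ± 58.1 and 260 ± 54.0 CPM (SD, n = 4 per group) its log2 fold change of 0.86 was larger than that of Ctsd, and so was its standard error of 0.27 (edgeR, adjusted p = 0.0515). Over the other settings the adjusted p of Ctsb ran from 0.0114 with DESeq2 to 0.694 on total counts, leaving aside the test against a fold change of 2. Its exons share 774 bases with those of Fdft1 on the other strand, and since the use of strand is not given in the sources used here, reads there cannot be told apart. Fdft1 itself had 34 to 214 counts per sample, against 3942 to 7027 for Ctsb.

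**Figure D2:**
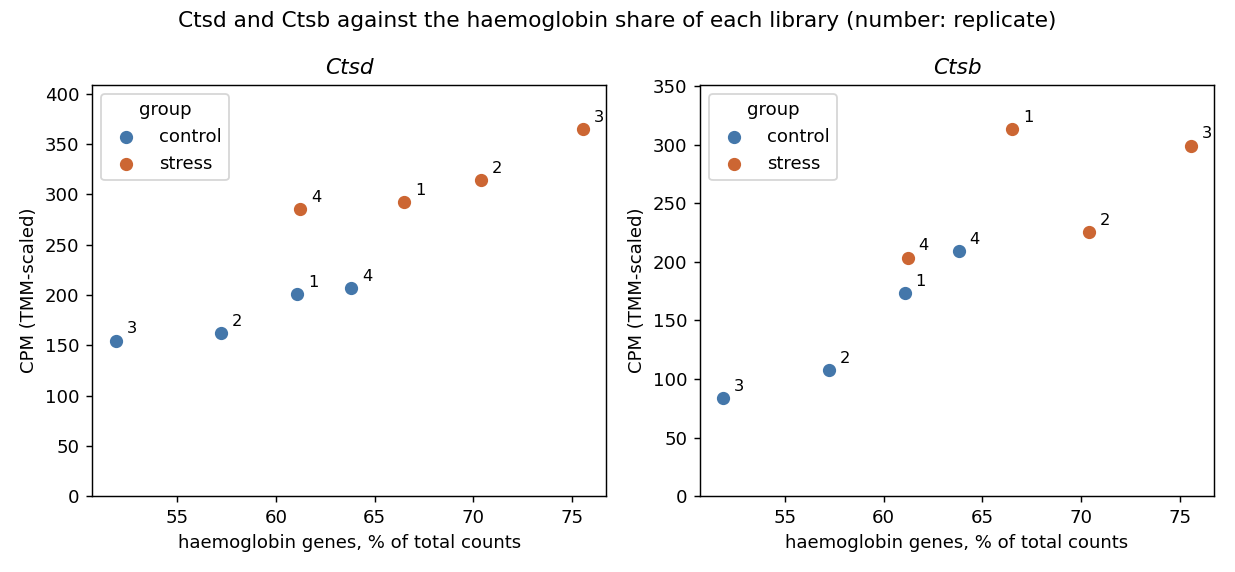
CPM of Ctsd (left) and Ctsb (right) against the share of total counts taken by haemoglobin genes, with control samples in blue, stress samples in orange and replicate numbers beside the points. On this TMM scale Ctsd follows the order of the share within each group while the groups stay apart (155 to 207 against 285 to 365 CPM). As a share of total counts Ctsd runs in the reverse order within each group and its groups overlap. Ctsb follows the order of the share within control samples and its groups overlap.

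The part of the haemoglobin share in the levels of Ctsd and Ctsb was not tested. For the other 8 genes the order of the samples in TMM-scaled CPM departed from that of the share in at least 1 group or ran against it, as for Ctss, which was lower in control samples with a higher share.

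Ctsc, the dipeptidyl peptidase that activates serine proteases of neutrophil and lymphocyte granules, ran from 35.5 to 40.6 CPM in control samples and from 36.5 to 50.1 CPM in the stress group. Stress replicate 2 lay within the control range and the other stress samples above it. The log2 fold change was 0.24 (standard error 0.12, edgeR, adjusted p = 0.182), and -0.54 on total counts and -0.17 outside haemoglobin. Ctss, which trims the invariant chain for antigen presentation and keeps its activity at neutral pH, ran from 64.4 to 81.4 CPM and from 61.8 to 98.1 CPM, with stress replicate 2 below every control sample. Its log2 fold change was 0.24 (standard error 0.15, edgeR, adjusted p = 0.302), and -0.61 on total counts and -0.19 outside haemoglobin.

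Ctsh, an aminopeptidase, did not separate the groups either, with 27.0 to 37.1 CPM in control samples and 26.3 to 38.6 CPM in the stress group. Its log2 fold change of 0.04 (standard error 0.14, edgeR, adjusted p = 0.874) was -0.77 on total counts and -0.38 outside haemoglobin, and fell just below 0 without control replicate 1, control replicate 4 or stress replicate 1. Ctsl, an endopeptidase, was scarce, at 51 to 105 counts per control sample and 33 to 92 counts per stress sample. In CPM it ran from 1.52 to 2.12 and from 1.85 to 2.94, a log2 fold change of 0.49 (standard error 0.22, edgeR, adjusted p = 0.147) that was -0.26 on total counts. Exons of Ctsl share 1742 bases with Gm47123 on the other strand and 395 with Gm49230 on its own, so its counts are uncertain too.

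Lgals3, the gene of galectin-3 (chr14:47367751-47386160, plus strand), was at 8.37, 7.35, 9.80 and 8.13 CPM in control replicates 1 to 4. In stress replicates 1 to 4 it reached 23.9, 12.8, 16.7 and 22.1 CPM. Every stress sample was above every control sample, stress replicate 2 again being the lowest of its group, as it was for Lyz2. The mean rose from 8.41 ± 1.02 to 18.8 ± 5.08 CPM (mean ± SD, n = 4 in both groups), or by 1.17 on the log2 scale (standard error 0.18, edgeR, adjusted p = 0.00152). On total counts outside haemoglobin it was 0.77 (adjusted p = 0.0118) and on total counts 0.40 (adjusted p = 0.293).

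**Figure D3:**
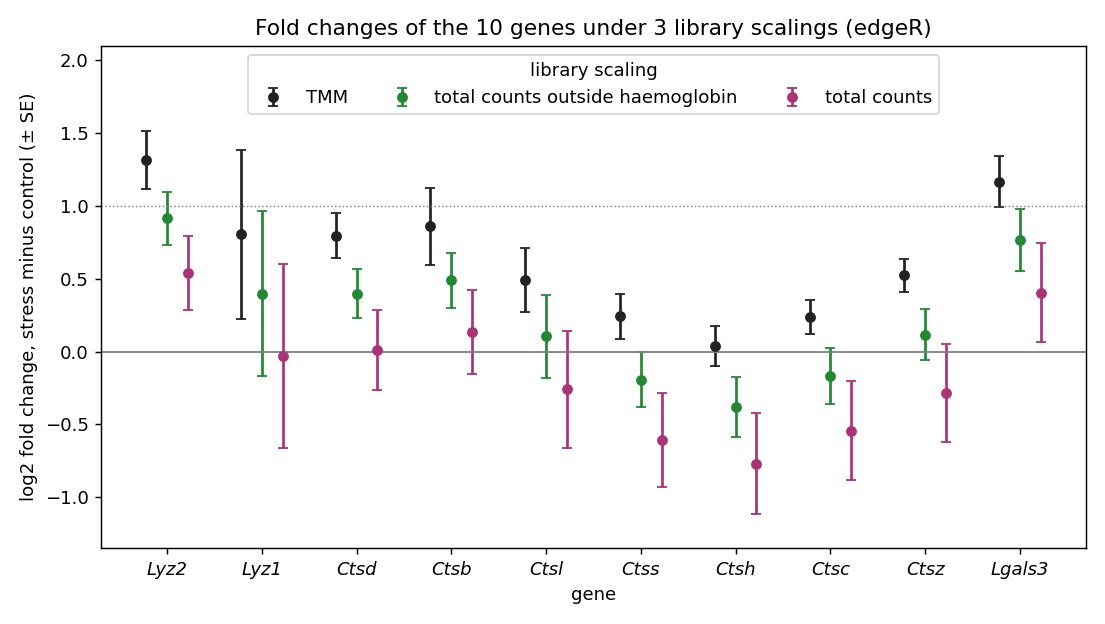
Log2 fold change (stress minus control, edgeR, n = 4 per group) of the 10 genes with its standard error, for libraries scaled by TMM, by total counts outside haemoglobin and by total counts; the dotted line marks a log2 fold change of 1. On the TMM scale the estimates lie between 0.04 and 1.32, and on total counts those of Lyz1, Ctsl, Ctss, Ctsh, Ctsc and Ctsz fall below 0 (from -0.03 to -0.77).

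Levels between genes were compared per length, as CPM per kilobase of exons. In the control group Lyz2 led with 207 ± 28.9, ahead of Ctsd (77.0 ± 11.3), Ctss (51.4 ± 5.76), Ctsz (29.4 ± 2.40) and Ctsb (23.7 ± 9.61), as CPM per kilobase with the SD over 4 samples. Ctsh (7.10 ± 1.10), Ctsc (6.66 ± 0.379) and Lgals3 (4.53 ± 0.549) followed, and Ctsl (0.271 ± 0.041) and Lyz1 (0.225 ± 0.118) were last on the same scale. Neighbours in this order whose samples overlapped were Ctsz and Ctsb, Ctsh and Ctsc, and Ctsl and Lyz1. In the stress group the first places were again those of Lyz2 (516 ± 107) and Ctsd (134 ± 15.4 CPM per kilobase), and their samples did not overlap with those of the next gene. There Lgals3 reached 10.1 ± 2.73 CPM per kilobase, above the means of Ctsc (7.85 ± 1.10) and Ctsh (7.31 ± 1.13), although its samples overlapped with those of both. The summed level of the 10 genes was 850, 688, 707 and 917 CPM in control replicates 1 to 4 and 1657, 1220, 1718 and 1396 CPM in stress replicates 1 to 4. As a share of total counts it was 0.0994%, 0.1013%, 0.1255% and 0.0923% in control replicates 1 to 4. In stress replicates 1 to 4 this share was 0.1328%, 0.0887%, 0.0871% and 0.1536%, so that the groups overlapped. Lyz2 made up 34.5% of the 10 genes' counts in control samples and 45.1% in the stress group (means of 4 samples).

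Counts relative to Lyz2 within a library are free of the scaling that moved the fold changes. The log2 ratio of Lgals3 to Lyz2 was -5.13, -4.94, -4.72 and -5.26 in control replicates 1 to 4 and -5.03, -5.24, -5.55 and -4.92 in stress replicates 1 to 4. These ranges overlapped (difference of means -0.17, two-sided exact permutation test over 70 assignments, p = 0.429, adjusted over 9 ratios 0.457). The ratio of Ctsh to Lyz2 was -3.36, -2.61, -2.88 and -3.53 in the control samples and -4.34, -4.20, -4.60 and -4.28 in the stress samples, on the log2 scale. For Ctsh every stress sample was thus below every control sample, with a difference of -1.26. The same held for Ctss (difference -1.08), Ctsc (-1.07), Ctsl (-0.82) and Ctsz (-0.78), that is, for 5 of 9 genes, against 78.5% of the 11717 tested genes other than Lyz2, and 0 of 9 lay above, against 0.0597%. Since most genes fell relative to Lyz2, the count of 5 is not a result about these genes. For these 5 ratios the exact p was 0.0286, the smallest that 4 samples against 4 allow, and 0.0514 after adjustment over 9 ratios, so that 0 of 9 passed an adjusted p of 0.05. At least 6 ratios at the smallest p would have been needed to pass. Ctsd (-0.50, adjusted p = 0.0857), Lyz1 (-0.43, adjusted p = 0.457) and Ctsb (-0.37, adjusted p = 0.257 in the same exact permutation test) had overlapping groups. The ratios are not independent of each other since they share the same Lyz2 counts, and their direction follows from Lyz2 having the largest log2 fold change of the 10 genes.

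**Figure D4:**
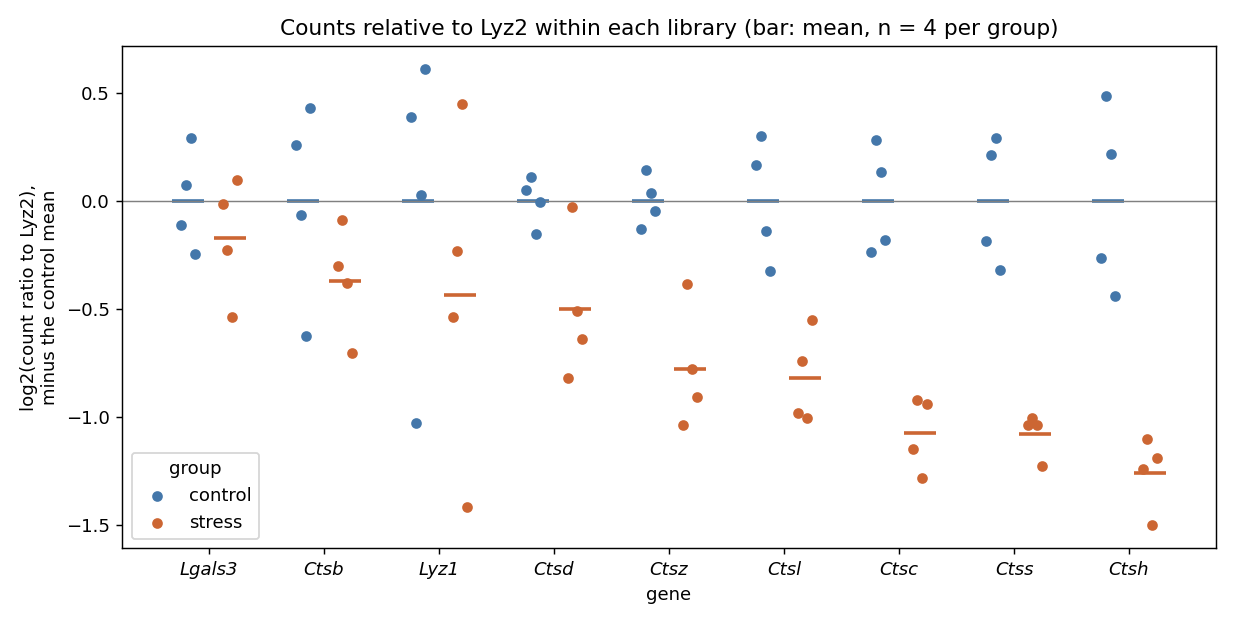
Log2 ratio of each gene's counts to the Lyz2 counts of the same library, minus the gene's control mean, for 4 control (blue) and 4 stress (orange) samples with bars at the means. The stress samples of Ctsz, Ctsl, Ctsc, Ctss and Ctsh lie below the control samples, by 0.78 to 1.26 on average, as do those of 78.5% of the other tested genes, and those of Lgals3, Ctsb, Lyz1 and Ctsd overlap with them.

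The genes whose profile over the 8 samples was most like that of 9 of the 10 were found by the root mean square difference of mean-centred log2 CPM. For Lyz2 they were Klra2 (0.11) and Proser2 (0.13), for Lgals3 Ccl9 (0.15) and Cd302 (0.16), in log2 units. Ctsd was nearest to Tpm4 (0.04) and Sdcbp (0.05), and Ctsz to Arpc3 (0.05) and Itm2c (0.05). Ctsc was nearest to P4hb (0.04) and to Cstb (0.07), the gene of a cathepsin inhibitor, and Ctsh to Slc26a6 (0.08) and Mfsd1 (0.08). Chaf1b (0.09) and Sertad3 (0.09) came closest to Ctss, Arf2 (0.09) and Gm7972 (0.11) to Ctsl, and Col1a1 (0.24) and Btbd8 (0.29) to the sparse Lyz1. Among the 10 genes themselves, Lyz2 and Lgals3 were each other's nearest (0.24), and so were Ctsd and Ctsz (0.17) and Ctsc and Ctsh (0.16). The root mean square of a gene about its own mean was 0.69 for Lyz2, 0.62 for Lgals3, 0.43 for Ctsd and 0.29 for Ctsz. It was 0.18 for Ctsc and 0.20 for Ctsh, little more than the difference between these genes. Samples of both groups enter each value, so a like difference between the groups also brings genes near.

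Beyond the 10 genes, 6 further lists of lysosomal genes held 117 tested genes. Of these, 10 were higher and 0 lower at an adjusted p below 0.01 in edgeR (8.55% higher, against 4.6% of all tested genes), 74 had a log2 fold change above 0 and 43 below, and the median was 0.12. Called up were 0 of the 117 (at an unadjusted p under 0.05, 38 were higher and 9 lower, against 2129 and 1524 of all tested genes, and DESeq2 called 2 and limma-voom 0). Leaving out a library gave 3 called up without control replicate 1, control replicate 4 or stress replicate 3, 2 without stress replicate 2, 1 without control replicate 2, stress replicate 1 or stress replicate 4, and 0 without control replicate 3. On total counts 0 passed upward and 2 downward, against 14 and 737 of all 11718 tested genes. On total counts outside haemoglobin 0 passed upward and 6 downward, against 107 and 806 of 11711. The count of 10 was 18 with DESeq2, 3 without control replicate 2, 4 without control replicate 3 and 4 without stress replicate 1. The genes that passed were spread over 5 of the lists. Over all 117 genes every stress sample was above every control sample in 29, against 11.1% of the tested genes, and below in 5, against 9.87%.

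Of 12 tested lysosomal proteases outside the 10, 6 were higher and 6 lower (median log2 fold change 0.01), and 0 passed an adjusted p of 0.01 in edgeR, DESeq2 or limma-voom (at an unadjusted p under 0.05, 2 higher and 2 lower in edgeR) with all samples and TMM scaling. Napsa, an aspartic protease and the most abundant per length, had 42.3 ± 2.20 and 43.6 ± 6.73 CPM (SD, n = 4 each), a log2 fold change of 0.04 that was -0.74 on total counts. Cpq had a log2 fold change of 1.04 (edgeR, adjusted p = 0.0392), Ctse 0.86 (0.0497) and Ctso -0.53 (0.0226). Without control replicate 4 both Ctse (1.17, adjusted p = 0.00735) and Ctso (-0.60, 0.00894) passed in edgeR, and Ctso also passed downward on total counts (-1.33, 0.00753) and outside haemoglobin (-0.94, 0.00512). The other cathepsins thus lay on both sides of 0.

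Of 9 tested cathepsin inhibitors 8 had a log2 fold change above 0 (median 0.30) and 2 passed. Serpinb6a, a cytosolic serpin, rose from 25.02 ± 1.25 to 44.0 ± 8.18 CPM (log2 fold change 0.81, edgeR, adjusted p = 0.00183), although on total counts it was -0.03. Cst3, the secreted cystatin C, rose from 49.98 ± 4.98 to 77.5 ± 10.8 CPM (0.63, adjusted p = 0.00502, -0.18 on total counts). Without control replicate 2 neither passed (adjusted p = 0.0110 and 0.0296), and the call of Cst3 also ended without control replicate 1 (0.0161) or 3 (0.0211) and without stress replicate 1 (0.0131) or 2 (0.0121). Serpinb1a, which inhibits neutrophil serine proteases, had a log2 fold change of -0.16 (edgeR, adjusted p = 0.406), and BC117090 was at 0 counts.

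Among 38 tested glycosidases, lipases and other lysosomal hydrolases, 21 were higher and 17 lower (median 0.04), and 2 passed. Hexa, a subunit of the hexosaminidase that degrades gangliosides, rose from 30.6 ± 4.71 to 48.0 ± 6.12 CPM (log2 fold change 0.65, edgeR, adjusted p = 0.00589, -0.13 on total counts). Rnaset2b rose from 10.3 ± 1.29 to 19.7 ± 4.79 CPM (0.92, edgeR, adjusted p = 0.00315), while Rnaset2a went from 10.5 ± 1.40 to 6.64 ± 2.02 CPM (-0.67, adjusted p = 0.0385). On total counts Rnaset2b did not pass (0.11, edgeR, adjusted p = 0.798, and 0.0462 outside haemoglobin) while Rnaset2a passed downward (-1.48, 0.00486, and -1.07 with 0.00326 outside haemoglobin). These are near-identical copies of a ribonuclease gene, so their counts are uncertain. The call of Hexa ended without control replicate 1 (adjusted p = 0.0144), 2 (0.0320) or 3 (0.0261) and without stress replicate 1 (0.0142), 2 (0.0103) or 4 (0.0113), and that of Rnaset2b without control replicate 1 (0.0120) or 3 (0.0119) or stress replicate 1 (0.0110). Acp5, the most abundant of the list per length, had 55.4 ± 1.83 and 57.1 ± 11.97 CPM (SD, n = 4 each; log2 fold change 0.04, -0.80 on total counts).

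Of 25 tested genes for lysosomal membrane proteins and transporters 17 were higher and 8 lower (median 0.18), and 4 passed. Litaf rose from 67.1 ± 12.8 to 133 ± 7.93 CPM (log2 fold change 0.99, edgeR, adjusted p = 0.00108). Lamp2 (0.77, adjusted p = 0.00134) and Lamp1 (0.72, adjusted p = 0.00363, -0.07 on total counts), the heavily glycosylated proteins that coat the inside of the lysosomal membrane, rose as well. The last of the 4 was Slc15a3 (0.83, edgeR, adjusted p = 0.00443), a peptide and histidine transporter named after its value was seen. Litaf and Lamp2 passed whichever library was left out, but not on total counts (0.24, edgeR, adjusted p = 0.509, and 0.00, 0.995) or outside haemoglobin (0.61, 0.0121, and 0.38, 0.0871), and Slc15a3 passed on neither scale (0.08, 0.847, and 0.44, 0.0983). Lamp1 did not pass without control replicate 2 (adjusted p = 0.0229) or 3 (0.0171) or stress replicate 1 (0.0108) or 2 (0.0135), nor Slc15a3 without control replicate 2 (0.0179) or 3 (0.0197) or stress replicate 1 (0.0137) or 4 (0.0134). Psap, the precursor of the saposins and the most abundant of the list per length, had a log2 fold change of 0.47 (edgeR, adjusted p = 0.0594, and 0.00706 with DESeq2) and -0.30 on total counts.

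Of 17 tested subunits of the vacuolar ATPase, the pump that acidifies the lysosome, 13 were higher and 4 lower (median 0.32) and 1 passed, Atp6v0c, which rose from 24.7 ± 4.91 to 42.5 ± 5.71 CPM (log2 fold change 0.78, edgeR, adjusted p = 0.00361, -0.01 on total counts). That call ended without control replicate 1 (adjusted p = 0.0145), 2 (0.0208) or 3 (0.0154) or stress replicate 1 (0.0134) or 2 (0.0115), while 2 subunits passed without stress replicate 3 or without a count filter, 4 without stress replicate 4 and 5 with DESeq2. Of 16 tested genes for sorting to lysosomes and its transcription factors 9 were higher and 7 lower (median 0.05). Sort1, the sorting receptor sortilin, passed and rose from 18.3 ± 3.89 to 35.6 ± 6.40 CPM (0.97, edgeR, adjusted p = 0.00256, and 0.0150 without control replicate 2; it did not pass on total counts, with a log2 fold change of 0.27, or outside haemoglobin, with 0.60 and an adjusted p of 0.0203). Tfec, a transcription factor of the MITF family, went from 0.282 ± 0.203 to 1.28 ± 0.694 CPM (2.23, standard error 0.53, edgeR, adjusted p = 0.0152, and 0.00592 without a count filter, 0.00164 with DESeq2, 0.00959 without control replicate 1 and 0.00565 without stress replicate 3), and M6pr, a receptor for mannose 6-phosphate tags and the most abundant of this list per length, had a log2 fold change of 0.16 (adjusted p = 0.305, -0.66 on total counts).

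Of 15 other lysozyme-family and galectin genes 5 were tested, and 7 were at 0 counts in every sample (Lyzl1, Lyzl6, Lyg1, Lyg2, Spaca3, Lgals2 and Lgals12). Of the 5, 0 passed an adjusted p of 0.01 in edgeR (at an unadjusted p under 0.05, 1 higher and 1 lower), and DESeq2 gave 1, Lgals8, as lower. Lgals8, a galectin that also binds damaged vesicles, had a log2 fold change of -0.40 (edgeR, adjusted p = 0.0197, and -0.80 with 0.00587 outside haemoglobin) and lay in every stress sample below every control sample. Lgals3bp, whose product binds galectin-3, had 0.49 (edgeR, adjusted p = 0.0296, -0.32 on total counts), and Lgals9, the most abundant of the list per length, 0.26 (adjusted p = 0.164, -0.53 on total counts).

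**Figure D5:**
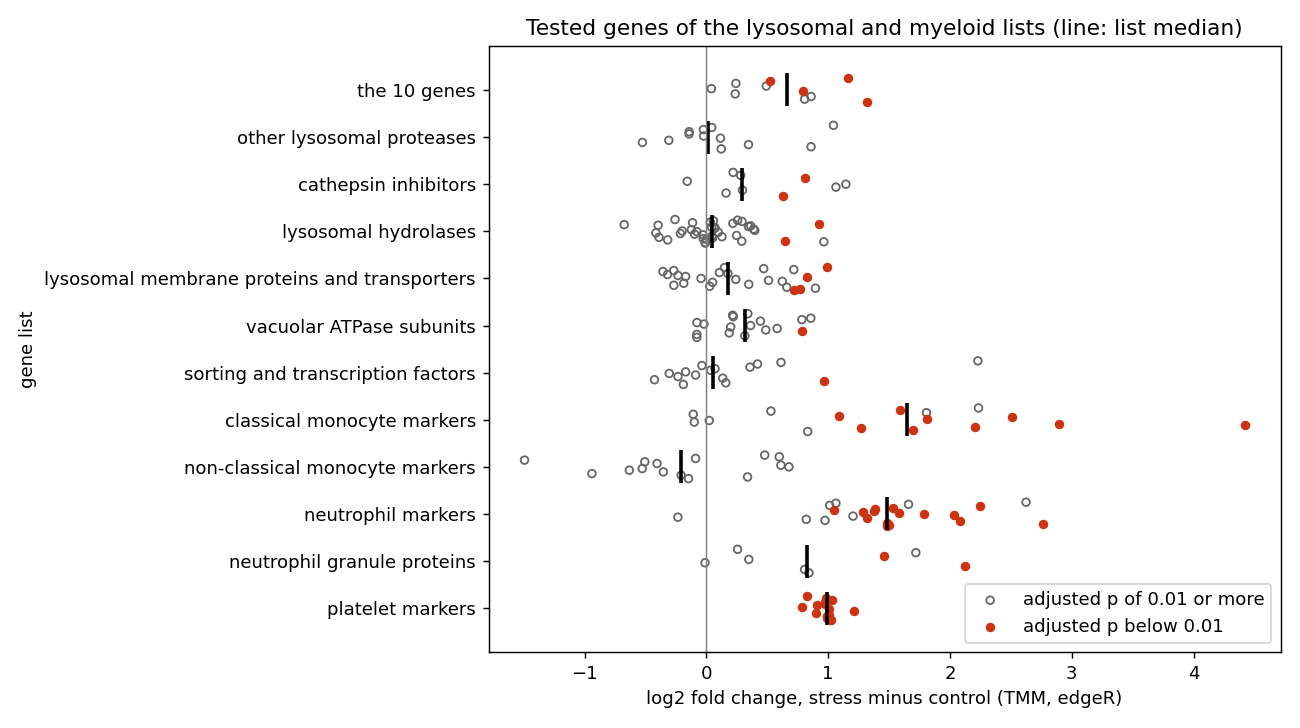
Log2 fold changes (TMM, edgeR, stress minus control) of the tested genes in the 10-gene set, the 6 other lysosomal lists and 5 lists of cell type markers, with filled points for an adjusted p below 0.01 and a line at each list's median. The medians of the other lysosomal lists lie between 0.01 and 0.32, against 0.66 for the 10 genes, 1.64 for classical monocyte markers and 1.48 for neutrophil markers; on total counts the medians of the 10 genes and of these 6 lists are below 0.

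Markers of blood cell types were listed beside these genes, and no test between lists was run. Of the 12 B cell markers 12 had a log2 fold change below 0 and 4 passed downward (median -0.49, edgeR), while the medians were -0.09 for T cell, -0.12 for NK cell and -0.13 for dendritic cell markers. The 4 became 0 without control replicate 2, control replicate 3 or stress replicate 1, 1 without stress replicate 2 and 2 without control replicate 1, and on total counts 12 passed downward. Of the 16 classical monocyte markers 14 had a log2 fold change above 0 and 9 passed and were called up (median 1.64, 0.93 on total counts), with F13a1, the coagulation factor XIII subunit of monocytes and platelets, at 48.3 ± 9.17 and 116.2 ± 9.29 CPM (SD, n = 4 each). The 9 became 5 without control replicate 2 or stress replicate 1 and 3 without stress replicate 3, 6 without control replicate 1, control replicate 3 or stress replicate 4, 6 with limma-voom, and 3 on total counts. Of the 23 neutrophil markers 22 were above 0 and 15 called up (median 1.48, 0.72 on total counts); these 15 became 9 without control replicate 2 and 4 on total counts. Of 15 non-classical monocyte markers, 5 were above 0 and 10 below (median -0.21), and 0 passed in edgeR (at an unadjusted p under 0.05, 3 higher and 4 lower, with 1 higher and 2 lower in DESeq2). Of 13 neutrophil granule genes 8 were tested and 2 called up (median 0.82). Of the macrophage markers Adgre1 was the most abundant per length, at 5.16 ± 0.881 and 7.55 ± 3.15 CPM (log2 fold change 0.58, edgeR, adjusted p = 0.137, -0.12 on total counts).

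Of 14 platelet markers, 14 were higher at an adjusted p below 0.01 and 5 called up (median 0.99, 0.22 on total counts), and the 14 became 4 without control replicate 2, control replicate 3 or stress replicate 2, 6 without stress replicate 1 and 0 on total counts. Ppbp, a chemokine of platelet granules, was the most abundant per length, at 499 ± 107 and 990 ± 112 CPM (SD, n = 4 each), and its own call ended without any of control replicates 1 to 3 or stress replicates 1, 2 and 4 (adjusted p from 0.0116 to 0.0393). Summed, the platelet markers stood at 2620, 1856, 1803 and 2674 CPM in control replicates 1 to 4 and at 4188, 4470, 4789 and 4107 CPM in stress replicates 1 to 4. This is the order in which Ctsd stood in the stress group, and within control samples too, both in TMM-scaled CPM. It is also the reverse order of the TMM factors within each group. These were 1.17, 1.47, 1.77 and 1.01 in control and 0.80, 0.73, 0.51 and 1.10 in stress replicates 1 to 4. On total counts the orders of Ctsd and the platelet sum differed within control samples. The part of platelet RNA in the Ctsd level was not tested.

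Promoters were searched for the letters CACGTG, the core of the element bound by TFEB, TFE3 and MITF, which drive lysosomal genes, and GAGGAAGT, a form of the PU.1 element of myeloid genes, on both strands. The window ran from 250 bases before to 50 after the start, and 8 of the 10 genes were in the RefSeq table (GRCm38.p6), Ctsb and Ctsh not. CACGTG was found in Ctsd and Ctsl and in 7.15% of 32851 promoters, and GAGGAAGT in Ctsc and Ctss and in 3.2%. Ctsd, which passed the test, has 2 matches. GENCODE puts the starts of Ctsd and Ctsl farther upstream than RefSeq does. The Ctsl match and the Ctsd match nearer the RefSeq start thus lie within the genes as GENCODE gives them. Stretches of 60 bases around the match farthest from the start are shown with the match in capitals for Ctsd (chr7:142388018-142388077, minus strand), Ctsc (chr7:88277908-88277967, plus strand) and Ctss (chr3:95526736-95526795, plus strand), the latter pair reading GAGGAAGT on the other strand. Of the 60 bases, 21 for Ctsd, 0 for Ctsc and 10 for Ctss lie in GENCODE exons.
Ctsd: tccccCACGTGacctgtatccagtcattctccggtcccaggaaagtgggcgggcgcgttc
Ctsc: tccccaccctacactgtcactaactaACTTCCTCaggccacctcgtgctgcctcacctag
Ctss: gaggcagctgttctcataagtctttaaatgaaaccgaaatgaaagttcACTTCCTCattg
The genes called up, Lyz2 and Lgals3, had neither run of letters in this window, which says nothing about the factors. The Lgals3 bases from 250 to 51 before its RefSeq start (chr14:47373610-47373809, plus strand), within the gene as GENCODE gives it but in 0 of its exons, are shown beside those of Lyz2 above, without capitals since no match was found.
Lgals3: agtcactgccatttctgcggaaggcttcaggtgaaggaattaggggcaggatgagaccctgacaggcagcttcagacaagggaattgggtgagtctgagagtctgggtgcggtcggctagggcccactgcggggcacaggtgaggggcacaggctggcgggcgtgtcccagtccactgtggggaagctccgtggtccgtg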

How the data were processed

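The authors deposited raw counts per gene symbol for 8 libraries of whole blood, without normalization. The submitters' processing notes name HISAT2, featureCounts and mm10; the annotation, the use of strand and the options are not given in the sources used here. The study used DESeq2; here edgeR 4.0.16 (R 4.3.3) with TMM scaling, its robust quasi-likelihood test with Benjamini-Hochberg adjusted p over 11718 genes was used (genes kept at 10 counts or more in 4 samples or more), and was tested on simulated data. Log2 CPM used a prior count of 2. Ratios to Lyz2 used a pseudocount of 0.5 and exact permutation tests in scipy 1.17.1. Alternatives were DESeq2 1.42.0 on all genes with counts (15930), limma-voom (limma 3.58.1), a test against a fold change of 2, other scalings, filters and thresholds, a block on replicate number and fits without each sample. Lengths, positions and coding sequences came from GENCODE M21, and shares of a gene in common with others from its transcripts. Named genes were the 10, from each list up to 3 genes with the smallest p in each direction, the most abundant per length and those at 0, and for each of the 10 the 2 genes of most similar profile; the text gives a part of them, and some are not reported here. The genes and lists were chosen with earlier results of these data known.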

Additional observations from a re-analysis of the deposited data

Results flagged for a closer look

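In 2 of 78 groups of 4 samples, 1 sample stood far from the others, and chance gives about 1 such group in 20. The log2 ratio of Ctss to Lyz2 was -3.19 in stress replicate 4, against -2.9993, -2.9995 and -2.9678 in the other stress samples, 3 values that happen to lie very close together. The summed level of the lysosomal proteases outside the 10 genes was 221.5 CPM in control replicate 4, against 206.4, 206.8 and 208.5 CPM in the other control samples, and this value lay within the range of the stress samples (196.4 to 246.6 CPM).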

How the results depend on the processing

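Called up were 14 genes on total counts, 57 on total counts outside haemoglobin, 307 with DESeq2 (which was run without the count filter on 15930 genes, where edgeR called 212), 337 at an adjusted p below 0.05 and 0 with glmTreat (edgeR's test against a fold change of 2, where at an unadjusted p under 0.05 there were 154 higher and 11 lower). Called down were 729, 137, 12, 20 and 0 in the same order, and 4 without a count filter. Leaving out 1 sample gave 76 to 340 called up and 1 to 8 called down. Of the 10 genes, 0 were called up on total counts, on total counts outside haemoglobin and with glmTreat, and 2 in each fit without 1 sample. Higher at an adjusted p below 0.01 were 0 on total counts, 1 outside haemoglobin, 0 with glmTreat and 2 to 4 without 1 sample. The cause was not tested.

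On total counts the log2 fold change turned negative for Lyz1 (-0.0295), Ctsc (-0.54), Ctsh (-0.77), Ctsl (-0.26), Ctss (-0.61), Ctsz (-0.28), Serpinb6a (-0.025), Cst3 (-0.18), Napsa (-0.74), Hexa (-0.13), Acp5 (-0.80), Lamp1 (-0.0727), Psap (-0.30), Atp6v0c (-0.0078), M6pr (-0.66), Lgals3bp (-0.32), Lgals9 (-0.53) and Adgre1 (-0.12). Outside haemoglobin it did for Ctsc (-0.17), Ctsh (-0.38), Ctss (-0.19), Napsa (-0.36), Acp5 (-0.38), M6pr (-0.25) and Lgals9 (-0.15). Leaving out 1 sample turned Ctsh (lowest -0.0168, highest 0.1627), Napsa (-0.0075 to 0.1774) and Acp5 (-0.0741 to 0.1486).

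With a replicate block 189 genes were called up and 1 down, and of the 10 genes 2 were called up and 2 passed the adjusted p, Lyz2 and Lgals3, while Ctsd (0.0211) and Ctsz (0.0257) did not. Of the 117 other lysosomal genes 4 passed. The numbers do not pair the samples: same-numbered samples had correlations of deviations of 0.062, 0.000, -0.045 and -0.160. For the ratios to Lyz2 and the Lyz1 share, fits without 1 sample (smallest p 0.0571) and with paired numbers (0.125) cannot pass. Lyz1 and Ctsl had 5 to 17 and 33 to 105 counts per sample, which limits what their depth can show.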

Other observations

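A further comparison, chosen after the data were seen and described without a test, took the log2 ratio of each of the 10 genes to the summed counts of 11 marker lists in the same library, a measure that library scaling does not move, and asked over which list it varied least across the 8 samples. For Ctsd this was the platelet list (SD 0.13, difference between the group means -0.19), ahead of the neutrophil list (SD 0.29). For Ctsc it was the list of neutrophil granule genes (SD 0.09, difference -0.14), ahead of the non-classical monocyte list (SD 0.24). For Lgals3 it was the classical monocyte list (SD 0.26), with a ratio that was higher by 0.45 in the stress group. For Lyz2 the platelet (SD 0.30), neutrophil (SD 0.33) and classical monocyte lists (SD 0.40) lay near each other, and Lyz2 was higher relative to each of them in the stress group, by 0.31, 0.23 and 0.63 on the log2 scale. For Ctsh the dendritic cell list came first (SD 0.20). Its summed level in control samples (1977 CPM) came mostly from Cd74 (1124 CPM) and H2-Aa (345 CPM). Their log2 fold changes were -0.14 and -0.31 (edgeR), against 1.48 for the scarce Xcr1 (1.19 CPM), and 6 of the 14 tested genes were above 0 and 8 below. For Ctss (SD 0.20), Ctsl (SD 0.22) and Ctsz (SD 0.23) the granule list came first. For Ctsb the platelet list (SD 0.28) came before the haemoglobin genes (SD 0.32), and for Lyz1, with few counts, the haemoglobin genes were first (SD 0.56). The granule list holds no member of the set. Its summed level in control samples (110.4 CPM) came mostly from Cybb (59.6 CPM) and Cyba (34.7 CPM). The ratios to this list thus follow these 2 genes more than the scarcer ones. Cybb had a log2 fold change of -0.01 and Cyba 0.35 (edgeR), against 2.12 for Lcn2 at 4.72 CPM in control samples. Of the 8 tested genes of the list 7 were above 0 and 1 below. Samples of both groups enter each SD, so that a list and a gene with a like difference between the groups have a small SD for that reason alone, and no cell of origin follows from it.

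Rnaset2a and Rnaset2b, near-identical copies, went in opposite directions, by -0.67 and 0.92 on the log2 scale, and this split of counts between copies was not followed further.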
